A study of Mus musculus with 11 samples.

Results

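The comparison described here is that of closed neural tube with open neuroepithelium in mouse embryos at embryonic day 8.5 (E8.5). It rests on 5 of the 11 arrays of the series, 2 of closed and 3 of open tissue, chosen by their titles. The other 6 arrays, 3 of each tissue, are from E9.5. All embryos were C57BL/6, and nothing in the labels names a mutation or a drug treatment in any group. Open neuroepithelium was the neural plate caudal to the point where the neural tube was closing, and closed neural tube was taken a short distance rostral to that point, alongside the caudal somites. Tissue was freed from its surroundings with pancreatin and trypsin, kept its closely attached notochord, and was pooled by litter. RNA (50 ng for each sample) was amplified by two-cycle labelling and hybridised to Affymetrix Mouse Genome 430 2.0 arrays, which read each transcript with 1 or more sets of short probes near its 3′ end. A further closed E8.5 array had been removed by the submitters for its quality and is not analysed here.

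Closed tissue lay rostral to open tissue in every pool, so closure and axial level cannot be told apart. Whether an open and a closed array shared litters is not given in the sources used here. The samples were pieces of tissue, in which fewer cells of a type and less RNA per cell cannot be told apart. The unit is the deposited log2 signal, on which a difference of 1 is a factor of 2. Differences are closed minus open. SE is the standard error from the model, and a gene was counted as past the threshold at a Benjamini-Hochberg adjusted p under 0.05 (limma, 13341 genes tested of 18193 on the array with a symbol of their own). Signals under the filter of 4.30 are taken as near background, so a difference with a group mean under it depends in size on background and is not ranked. A left-out array is 1 E8.5 array left out at a time. Signals of different probe sets are not on a common scale, and no gene's level is set against another's.

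As background, the mouse spinal neural tube forms by folding of the neural plate and closes like a zipper from rostral to caudal, ending at the posterior neuropore. Cells of the open plate next to the neuropore lie close to the primitive streak and tail bud, where FGF and Wnt signals keep progenitors that add tissue to the trunk. Tissue that has passed rostrally comes under retinoic acid and hedgehog signals, acquires dorsal and ventral domains, and begins to make neurons. Genes of axial and dorsoventral patterning are therefore well known to differ between these regions. The account below turns to the other genes.

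At E8.5, 958 genes were past the threshold (7.18% of those tested), 507 of them higher (3.8%) and 451 lower (3.38%) in closed neural tube. The median absolute difference was 1.01 for these genes and 0.12 for all genes tested. Differences of at least 1 were found in 266 higher and 218 lower genes, and of at least 2 in 80 and 58. Of 196 tested genes of the patterning and axial families, 85 were past the threshold (43.4%). Outside these families 873 of 13145 were (6.64%), so most of the genes that differed were not patterning genes. The arrays of the groups did not overlap in 3668 genes (27.5%), among them all 958 past the threshold. With the replicate number as a random block within each stage, 1517 genes passed, 824 higher and 693 lower. Without closed replicate 2 the count of higher genes was 329.

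Component 1 of the E8.5 arrays held 63.5% of the variance and separated closed from open arrays. Component 2 (27.9%) placed open replicate 2 and closed replicate 2 on one side and the other 3 arrays on the other. In control probe sets for Gapdh and Actb, a measure of RNA quality, 3′ signal was above 5′ signal by 1.82 in closed replicate 1 and by 1.15 to 1.32 in the other 4 arrays, and with this measure as a covariate 1520 genes passed. The closed E8.5 arrays were at least 1 apart in 282 genes, of which 267 were higher in replicate 2, and 24 of the 282 were past the threshold. Of the 958 genes, 482 (50.3%) passed in all 5 fits that left out 1 E8.5 array, and none passed in the opposite direction in any of them.

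Markers of the neuroepithelium and of tissues that could have been carried along were measured on the same arrays. Of 18 neuroepithelial markers 8 were higher in closed tissue and 0 lower. The median level of this list was 8.63 to 8.90 in the open arrays and 9.44 and 10.005 in the closed arrays, so both tissues carried the signal their labels name. Markers of primitive streak and tail bud were lower in closed tissue for 10 of 12, with list medians of 9.34 to 9.68 in open and 7.33 and 7.88 in closed arrays, and markers of presomitic mesoderm for 4 of 8. Of 10 neural crest markers 4 were higher and 1 was lower, with list medians of 5.39 to 5.67 in open and 6.61 and 7.08 in closed arrays. Of 7 notochord markers 3 were lower, of 16 surface ectoderm markers 6 were lower and 1 higher, and of 9 endothelial markers 2 were higher and 1 lower. The somite list had 1 lower member (Foxd1) of 7, and its median was 5.61 and 6.23 in closed replicates 1 and 2. Foxd1 lost its call without open replicate 1, 2 or 3 or closed replicate 1 (adjusted p 0.0634 to 0.0986). For somite markers the higher count was 3 without closed replicate 1, and the lower count was 0 without open replicate 1, 2 or 3 or closed replicate 1. Of somite markers 1 was higher and 1 lower after quantile normalization, with array weights, with a fixed replicate block, with a random replicate block or without open E9.5 replicate 3, 0 were higher and 0 lower with the 5 E8.5 arrays alone and 2 were higher and 1 lower with the 3′ to 5′ covariate. For neural crest markers the higher count was 2 without open replicate 1, 2 or 3 or closed replicate 2. Of neural crest markers 2 were higher and 1 lower with a stricter filter or with the 5 E8.5 arrays alone. For notochord markers the higher count was 1 without closed replicate 1. For surface ectoderm markers the higher count was 0 without open replicate 2 or 3, and the lower count was 2 without open replicate 1 and 3 without open replicate 2 or closed replicate 1. For endothelial markers the higher count was 1 without open replicate 1 or 3 or closed replicate 2. None of 6 endoderm, 6 lateral mesoderm and 5 blood markers passed (limma), and 2, 0 and 1 of them had an unadjusted p under 0.05. For endoderm markers the higher count was 1 without closed replicate 1, and the lower count was 1 without closed replicate 2. Of endoderm markers 0 were higher and 1 lower after quantile normalization, with array weights, with a fixed replicate block, with a random replicate block or without open E9.5 replicate 3 and 1 was higher and 1 lower with the 3′ to 5′ covariate. Of blood markers 2 were higher and 0 lower with a fixed replicate block. The embryonic globin Hbb-y was 5.01, 8.20 and 7.67 in the open arrays and 8.88 and 8.43 in the closed arrays, low in open replicate 1, and Hbb-y at E8.5 passed with a fixed replicate block (difference 2.05, adjusted p = 0.0416, limma). The part of these other cells in the differences below was not tested.

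Outside the patterning families the largest difference toward closed tissue was that of ccdc198, which was 4.69, 4.73 and 4.56 in the open arrays and 10.08 and 10.15 in the closed arrays (difference 5.46, SE 0.34, adjusted p = 1.35e-06). Its open arrays lay close to background and its closed arrays far above it. Scube2, a secreted protein that helps release hedgehog ligands from the cells that make them, was 4.63, 4.42 and 5.21 in the open arrays and 8.99 and 9.61 in the closed arrays (difference 4.55, SE 0.24, adjusted p = 3.03e-07). Pcdh8, a protocadherin of cell adhesion, was 5.44, 4.55 and 4.57 in the open arrays and 9.37 and 8.79 in the closed arrays (difference 4.23, SE 0.41, adjusted p = 3.46e-05). In neither gene did any closed array come within 3 log2 units of an open one. Other cell surface genes were among these 15. Nrcam, an immunoglobulin-domain adhesion molecule of neurons and glia, was 6.87, 6.63 and 6.39 in the open arrays and 10.23 and 9.998 in the closed arrays (difference 3.48, SE 0.23, adjusted p = 2.12e-06), and the groups lay wide apart. Nrp1, a coreceptor for semaphorins and VEGF, was 5.29, 4.93 and 4.88 in the open arrays and 8.67 and 8.31 in the closed arrays (difference 3.46, SE 0.18, adjusted p = 2.84e-07). The endothelin receptor gene Ednrb, also on the neural crest list, was 5.96, 5.35 and 5.42 in the open arrays and 9.89 and 9.66 in the closed arrays (difference 4.20, SE 0.24, adjusted p = 5.41e-07).

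Pth1r, the receptor for parathyroid hormone and its related peptide, was 5.12, 5.28 and 4.93 in the open arrays and 8.04 and 8.62 in the closed arrays (difference 3.22, SE 0.17, adjusted p = 4.10e-07). Maob, a monoamine oxidase that breaks down dopamine and related amines, was 4.56, 5.29 and 4.77 in the open arrays and 7.80 and 8.59 in the closed arrays (difference 3.32, SE 0.31, adjusted p = 2.69e-05). Slc12a5, the potassium-chloride cotransporter that keeps chloride low in mature neurons, was 5.79, 5.71 and 5.26 in the open arrays and 8.94 and 8.35 in the closed arrays (difference 3.06, SE 0.23, adjusted p = 4.85e-06). In all 3 the lowest closed array stood more than 2 above the highest open one. Gabrg1, a GABA-A receptor subunit, differed by 3.12, Fez1, a kinesin adaptor of axon outgrowth, by 3.11, and Cpn1, a subunit of the peptide-trimming enzyme carboxypeptidase N, by 3.20. The zinc finger transcription factor Mecom differed by 3.22, and Gm2102 and Minar2 by 3.58 and 3.09. These 6 genes had adjusted p-values (limma) from 4.13e-07 to 2.55e-05. Mecom, Gm2102 and Cpn1 each had 2 tested probe sets, of which the other differed by only -0.0021, -0.13 and 0.88 and did not pass. Of 12 genes in the synapse and transmitter list 0 were higher and 1 lower, and of 18 GABA and glutamate receptors 1 was higher and 0 lower. These shares (8.33% and 5.56%) were near the 7.18% of all genes tested. All 15 genes of largest difference kept their call when any 1 of the 5 arrays was left out.

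Toward open tissue the largest difference outside the patterning families was in Tril, a leucine-rich repeat protein that works with Toll-like receptor 4. It was 9.14, 9.13 and 9.41 in the open arrays and 4.89 and 5.34 in the closed arrays (difference -4.11, SE 0.19, adjusted p = 1.74e-07). The closed arrays sat near 5, close to background. Pof1b, an actin-binding protein of epithelia, was 7.96, 7.72 and 8.14 in the open arrays and 4.50 and 4.69 in the closed arrays (difference -3.35, SE 0.16, adjusted p = 2.08e-07). Every closed array of Pof1b lay at least 3 below every open one. Epha5, a receptor for ephrin-A ligands, was 9.47, 9.28 and 9.75 in the open arrays and 6.22 and 6.16 in the closed arrays (difference -3.31, SE 0.23, adjusted p = 3.25e-06), and its closed replicates nearly coincided. Limch1, an activator of non-muscle myosin, was 9.64, 9.75 and 9.85 in the open arrays and 7.14 and 7.09 in the closed arrays (difference -2.63, SE 0.18, adjusted p = 2.66e-06). Its closed arrays were within 0.1 of each other and far below the open ones. The 3 tested probe sets of Limch1 ran from -2.79 to -0.12, and 2 of them passed.

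Genes known from Wnt signalling, the primitive streak and epithelia were also among the 15 of largest difference in the lower direction. Notum, a secreted enzyme that inactivates Wnt ligands, was 7.86, 8.57 and 8.47 in the open arrays and 5.23 and 5.97 in the closed arrays (difference -2.70, SE 0.36, adjusted p = 4.99e-04). Mixl1, a homeobox gene of the primitive streak, was 8.02, 7.69 and 7.96 in the open arrays and 5.29 and 4.76 in the closed arrays (difference -2.87, SE 0.21, adjusted p = 4.77e-06). In both genes every closed array lay below every open one, as in every lower gene past the threshold. Ripk4, a kinase needed in the epidermis, differed by -2.72, Col13a1, a transmembrane collagen, by -2.71, and the transcription elongation factor Tcea3 by -3.05. Lmo2, a cofactor of blood and vessel transcription factors, differed by -2.68, Plekha2, a phosphoinositide-binding adaptor, by -2.85, and AW551984 by -3.09. The adjusted p-values (limma) of these 6 ran from 4.85e-06 to 3.34e-05. The 3 tested probe sets of AW551984 ran from -3.09 to -0.19, and 1 of them passed. All 15 genes of largest difference in this direction also kept their call without any 1 of the 5 arrays.

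**Figure D1:**
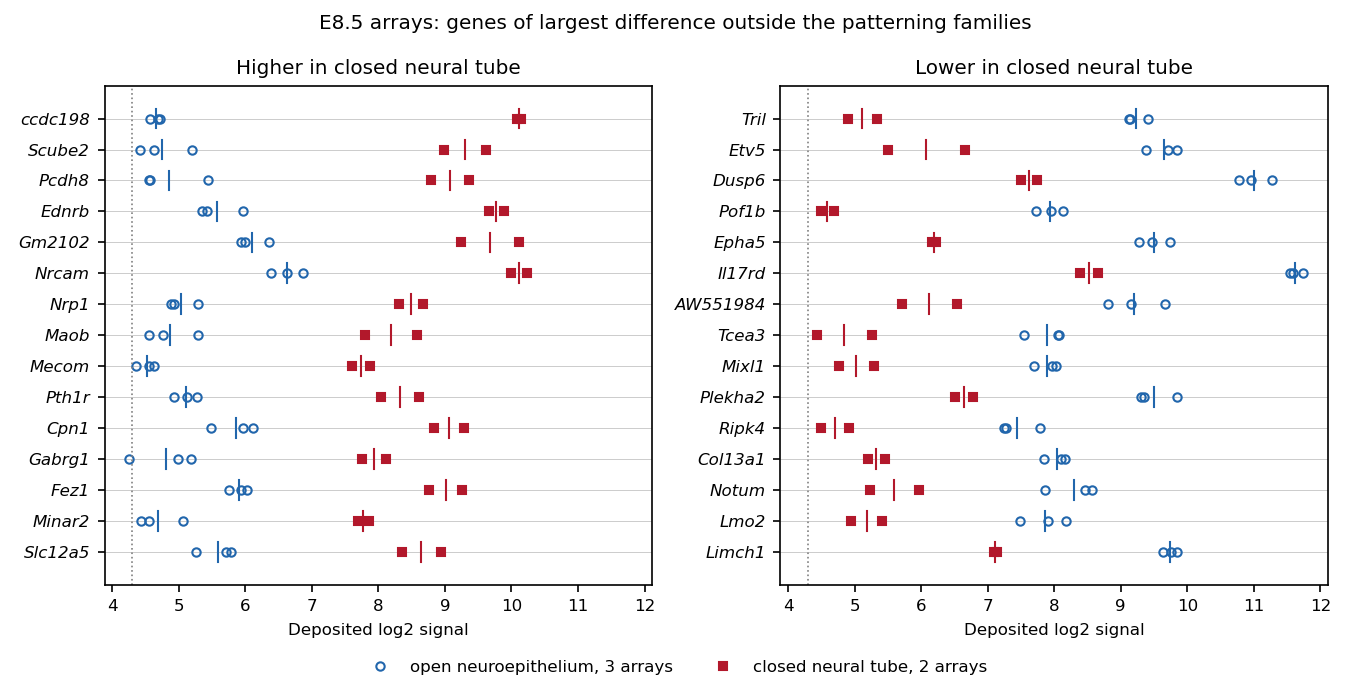
Deposited log2 signal (x axis) of the 15 genes of largest difference in each direction (rows) in each E8.5 array, with open circles for the 3 open arrays, filled squares for the 2 closed arrays, short lines for group means and a dotted line at the filter of 4.30. Rows were taken only from genes whose groups do not overlap, so the groups are apart by choice. The rows run from ccdc198 with a difference of 5.46 to Tril with -4.11.

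For some genes 1 tissue was near background, which leaves the size of the difference uncertain. In 30 of the higher genes the open mean was under the filter, and in 29 of the lower genes the closed mean was. Prdm8, a zinc finger gene of the PR domain family, was 3.93, 3.94 and 3.74 in the open arrays and 8.02 and 8.01 in the closed arrays (adjusted p = 9.04e-08, limma). The host transcript of the neural microRNA miR-124, Mir124-2hg, was 4.37, 4.39 and 3.29 in the open arrays and 7.60 and 7.22 in the closed arrays (adjusted p = 1.44e-05, limma). Its probe set reads the host RNA and not the mature microRNA. The beta chain of fibrinogen, Fgb, was 3.94, 4.18 and 4.03 in the open arrays and 7.12 and 6.80 in the closed arrays, and norrin, a secreted ligand for a frizzled receptor (Ndp), was 3.98, 3.999 and 3.80 in the open arrays and 5.71 and 6.20 in the closed arrays. For all 4 the open arrays were near or under the filter, and the closed arrays were above it. Kcne1l, of a potassium channel subunit family, was 3.92, 4.54 and 3.79 in the open arrays and 5.39 and 6.45 in the closed arrays. Kcne1l lost its call without open replicate 1 or 3 or closed replicate 2 (adjusted p 0.0536 to 0.155).

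In the opposite direction, the GABA-synthesising enzyme gene Gad1 was 7.83, 7.74 and 8.22 in the open arrays and 3.12 and 3.53 in the closed arrays (adjusted p = 1.74e-07, limma). It is a gene of inhibitory neurons. Of 14 neuronal markers in all 1, Elavl4, was higher and 2, Gad1 and Stmn2, were lower (21.4% past the threshold, against 7.18% of all genes tested). Elavl4 differed by 0.71 (adjusted p = 0.0187, limma). Stmn2 lost its call without closed replicate 2 (adjusted p = 0.0627). For neuronal markers the higher count was 0 without open replicate 1 or 3 or closed replicate 2, and the lower count was 1 without closed replicate 2. The closed arrays of Gad1 were under the filter and its open arrays far above it. Lypd6b, of the Ly6 family, was 7.36, 7.81 and 7.87 in the open arrays and 4.14 and 4.45 in the closed arrays, and the zinc finger gene Bnc1, known from epidermis, was 5.24, 5.72 and 6.09 in the open arrays and 3.76 and 3.42 in the closed arrays. Pgr, the progesterone receptor, was 5.39, 5.28 and 5.11 in the open arrays and 4.47 and 4.07 in the closed arrays, a smaller gap. Pgr lost its call without closed replicate 2 (adjusted p = 0.0638).

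**Figure D2:**
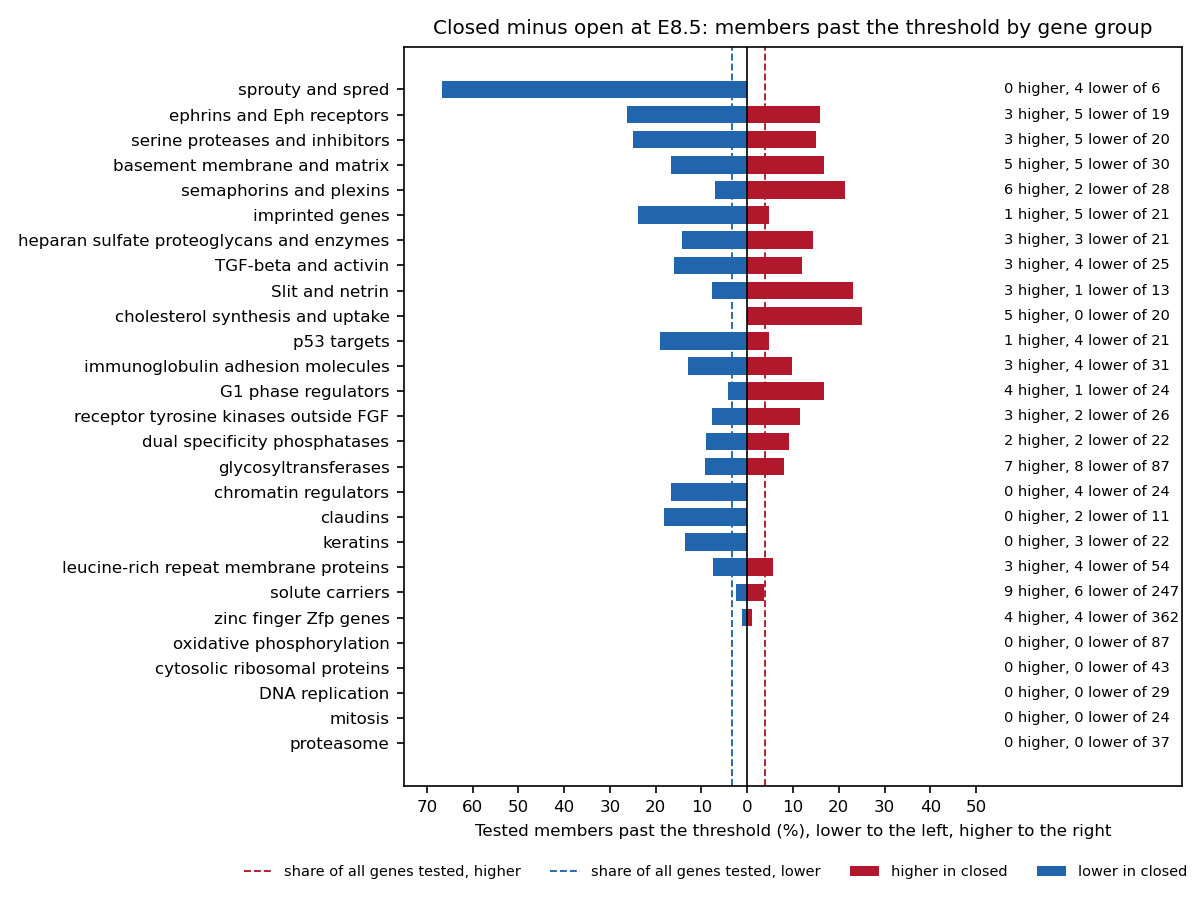
Share of tested members past the threshold (x axis, %) in selected gene groups (rows), higher in closed tissue to the right and lower to the left, with dashed lines at the shares of all genes tested (3.8% and 3.38%) and counts at the right; the groups were chosen after their counts were seen. The sprouty and spred group has 4 lower of 6, whereas ribosomal protein, proteasome, DNA replication and mitosis groups have no member past the threshold.

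Inhibitors that the FGF and MAP kinase pathway induces against itself were among the lower genes. Sprouty and spred proteins block the path from receptor tyrosine kinases to Ras and Raf, and 4 of 6 tested members were lower in closed tissue, 0 higher (median -1.37 against 0.0015 for all genes tested). Spry1 was 9.79, 10.20 and 10.05 in the open arrays and 8.01 and 8.50 in the closed arrays (difference -1.76, SE 0.19, adjusted p = 9.84e-05). Spry2 was 8.10, 8.25 and 8.33 in the open arrays and 6.86 and 6.65 in the closed arrays (difference -1.47, SE 0.14, adjusted p = 2.86e-05). Both closed arrays were at least 1 below the lowest open array in either gene. Spry2 had 2 tested probe sets, of which the other differed by 0.11. Spry4, named here because it completes the count, differed by -1.64 (SE 0.28, adjusted p = 0.00292, limma) and Spred3 by -1.27 (adjusted p = 0.002, limma, closed mean under the filter).

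Dusp6, the cytoplasmic phosphatase that inactivates ERK, was 10.96, 10.77 and 11.27 in the open arrays and 7.51 and 7.74 in the closed arrays (difference -3.38, SE 0.24, adjusted p = 3.12e-06). The ETS factor Etv5, whose transcription follows FGF signalling, was 9.38, 9.85 and 9.71 in the open arrays and 5.50 and 6.66 in the closed arrays (difference -3.57, SE 0.29, adjusted p = 8.54e-06), with the closed arrays more than 1 apart. The 3 tested probe sets of Etv5 ran from -3.57 to -1.02, and 1 of them passed. Il17rd (Sef), a membrane inhibitor of FGF receptors, was 11.59, 11.54 and 11.74 in the open arrays and 8.38 and 8.66 in the closed arrays (difference -3.10, SE 0.12, adjusted p = 8.71e-08). Its SE was the smallest of the 30 genes of largest difference. Over the 22 dual specificity phosphatases the directions were mixed: Dusp6 and Dusp4 (-1.83, adjusted p = 0.00139, limma) were lower, and Dusp3 (0.81, adjusted p = 0.00959) and Dusp5 (1.07, adjusted p = 0.0416) were higher. Their median was 0.04. Dusp3 lost its call without closed replicate 2 (adjusted p = 0.118), and Dusp5 without open replicate 1 or 3 or closed replicate 1 or 2 (adjusted p 0.0664 to 0.266). For these phosphatases the higher count was 1 without open replicate 1 or 3 or closed replicate 1 and 0 without closed replicate 2. Of these phosphatases 4 were higher and 3 lower with a fixed replicate block.

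Receptors and ligands that guide axons and sort cells at boundaries differed in both directions. Of 19 ephrins and Eph receptors 3 were higher and 5 lower (median -0.12). The lower examples were receptors: beside Epha5, Epha4 was 8.33, 8.26 and 8.58 in the open arrays and 6.37 and 6.73 in the closed arrays (difference -1.84, SE 0.15, adjusted p = 1.23e-05), and Epha2 differed by -1.71 (adjusted p = 2.60e-04, limma). The higher members were ligands. Efnb3 was 6.50, 6.99 and 6.88 in the open arrays and 8.12 and 8.97 in the closed arrays (difference 1.76, SE 0.23, adjusted p = 4.61e-04), and Efnb2 differed by 0.78 (adjusted p = 9.43e-04, limma) and Efna2 by 0.61 (adjusted p = 0.0389). Efna2 lost its call without open replicate 1, 2 or 3 or closed replicate 1 or 2 (adjusted p 0.0539 to 0.164). Epha4 lost its call when averaged over all its probe sets (adjusted p = 0.172, the 4 tested ones from -1.84 to -0.81). For ephrins and Eph receptors the lower count was 3 without open replicate 2 or 3 or closed replicate 1.

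Of 28 semaphorins, plexins and neuropilins 6 were higher and 2 lower, with a median of -0.087. Sema3c, a secreted semaphorin, was 6.50, 6.78 and 6.76 in the open arrays and 8.32 and 8.29 in the closed arrays (difference 1.62, SE 0.13, adjusted p = 9.53e-06), its replicates within 0.3 of each other in either tissue. Plxnc1, a plexin receptor, was 7.29, 7.13 and 6.83 in the open arrays and 8.82 and 8.70 in the closed arrays (difference 1.67, SE 0.21, adjusted p = 3.50e-04). The transmembrane semaphorins Sema4d and Sema6a went the other way: Sema4d was 9.26, 9.10 and 9.28 in the open arrays and 7.72 and 7.69 in the closed arrays (difference -1.51, SE 0.16, adjusted p = 7.02e-05) and Sema6a differed by -1.34 (adjusted p = 1.57e-04, limma). In either gene 1 probe set passed. The 2 tested ones of Sema4d ran from -1.51 to 0.0036, and the 3 of Sema6a from -1.34 to -0.12.

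The Slit and netrin group had 3 higher and 1 lower of 13 (median 0.11). Netrin 1 (Ntn1), which attracts or repels axons and is made by the floor plate, was 6.42, 5.97 and 6.07 in the open arrays and 7.90 and 8.12 in the closed arrays (difference 1.86, SE 0.19, adjusted p = 6.77e-05). The 2 tested probe sets of Ntn1 ran from -0.029 to 1.86. Slit1, a repellent read by Robo receptors, differed by 0.83 (adjusted p = 0.00396, limma). The netrin receptors differed among themselves: Unc5b was 8.15, 8.30 and 8.52 in the open arrays and 6.68 and 6.34 in the closed arrays (difference -1.81, SE 0.20, adjusted p = 9.82e-05), lower in both closed arrays, and Unc5a differed by 0.87 (adjusted p = 0.027, limma). The 2 tested probe sets of Unc5b ran from -1.81 to -0.58, and 1 of them passed. Unc5a lost its call without open replicate 1, 2 or 3 or closed replicate 2 (adjusted p 0.0605 to 0.25).

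**Figure D3:**
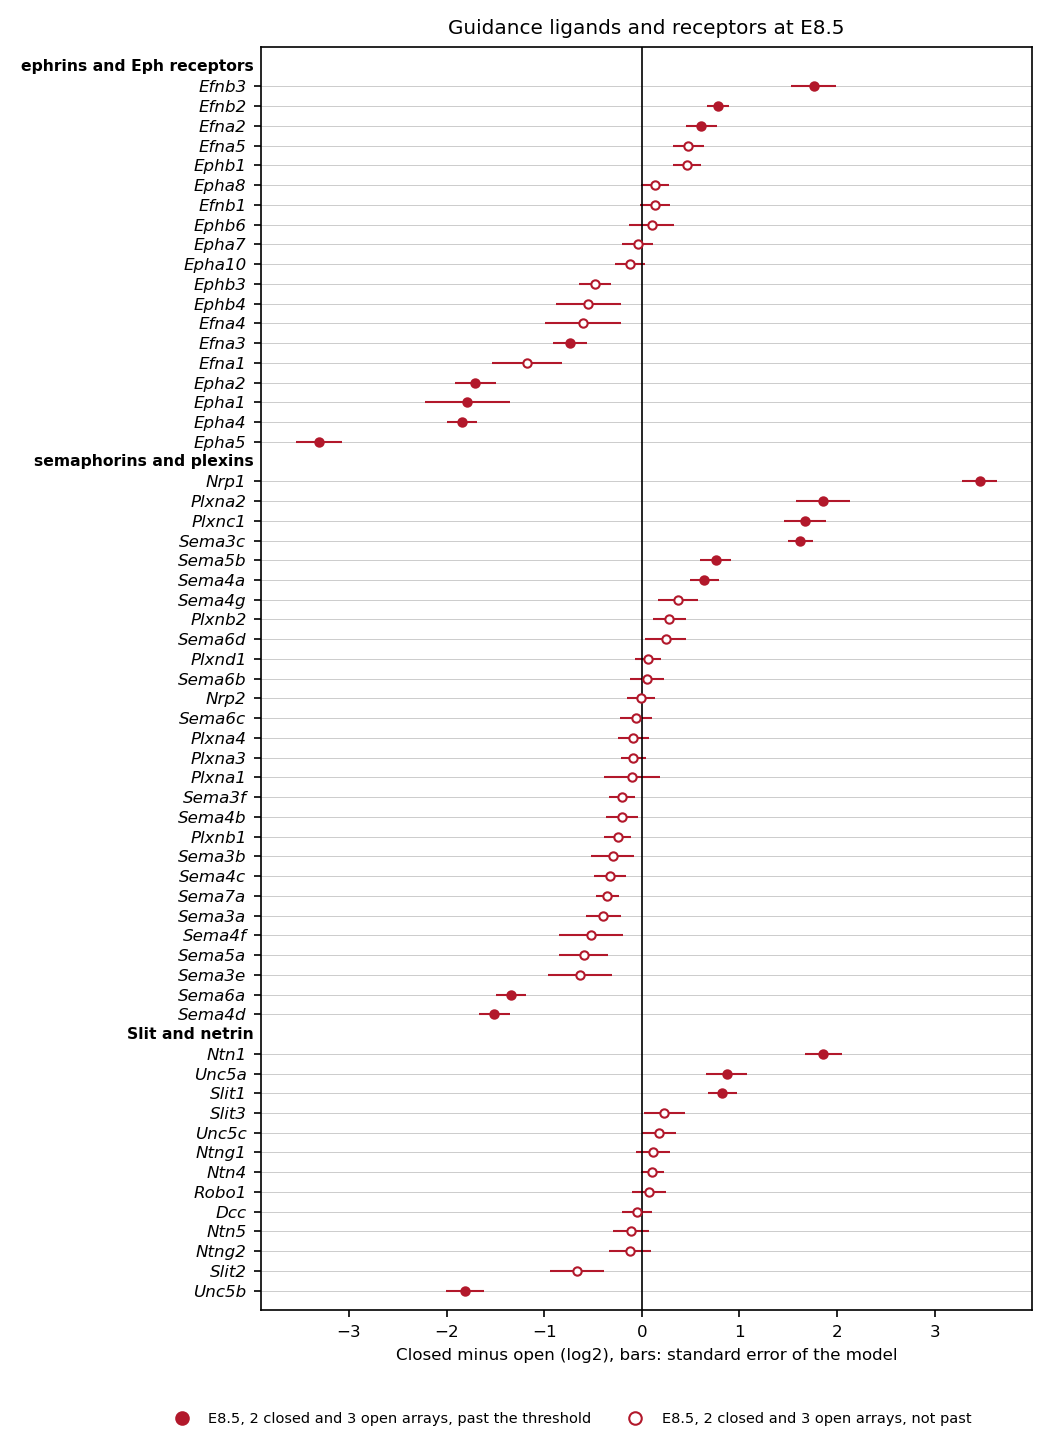
Closed minus open log2 difference at E8.5 (x axis, bars are the SE of the model) for every tested ephrin, Eph receptor, semaphorin, plexin, neuropilin, Slit, netrin and related receptor (rows), filled where past the threshold. Nrp1 (3.46) and Epha5 (-3.31) mark the ends, and within the Eph group the filled points to the right are ephrins.

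Cell adhesion genes were divided in the same manner. Of 31 immunoglobulin adhesion molecules 3 were higher and 4 lower (median 0.02). Chl1, a close homologue of the adhesion molecule L1, differed by 1.74 (adjusted p = 1.87e-04, limma, open mean under the filter), whereas Alcam, known from axon bundling, was 7.26, 7.86 and 7.28 in the open arrays and 6.12 and 6.28 in the closed arrays (difference -1.27, SE 0.22, adjusted p = 0.00307). Of 54 leucine-rich repeat genes 3 were higher and 4 lower (13.0% past the threshold, against 7.18% of all genes tested). Lrrn3 was 7.12, 7.14 and 7.54 in the open arrays and 5.12 and 5.10 in the closed arrays (difference -2.15, SE 0.21, adjusted p = 4.51e-05) and its relative Lrrn1 was 6.31, 6.03 and 5.95 in the open arrays and 7.85 and 7.56 in the closed arrays (difference 1.61, SE 0.21, adjusted p = 3.70e-04), so these close relatives lay on opposite sides. Lrig1, which restrains ErbB receptors, differed by 1.60 (adjusted p = 1.02e-04, limma), Flrt3, an adhesion and FGF receptor partner, by 1.03 (adjusted p = 9.43e-04) and Lrrtm4, a synaptic organiser, by -1.84 (adjusted p = 1.67e-05). The 3 tested probe sets of Lrig1 ran from -0.21 to 1.68, and 2 of them passed. For the immunoglobulin molecules the lower count was 2 without open replicate 1 or 3 or closed replicate 2. Of leucine-rich repeat genes 6 were higher and 7 lower with the 3′ to 5′ covariate.

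Of 29 cadherins and protocadherins 2 were higher (Pcdh8, above, and Cdh6) and 2 lower (Dsg2 and Pcdh7), 13.8% past the threshold against 7.18% of all genes tested. Cdh6, a classical cadherin, was 9.04, 8.89 and 8.80 in the open arrays and 9.75 and 9.75 in the closed arrays (difference 0.84, SE 0.15, adjusted p = 0.00415). Of 18 integrins 0 were higher and 2 lower (11.1% past the threshold, against 7.18% of all genes tested). The beta subunit gene Itgb5 was 10.73, 10.94 and 10.87 in the open arrays and 9.23 and 9.35 in the closed arrays (difference -1.56, SE 0.15, adjusted p = 2.86e-05), and Itgb8, whose product activates latent TGF-beta, differed by -1.14 (adjusted p = 0.00786, limma). Dsg2, a desmosomal cadherin, differed by -0.89 (adjusted p = 0.0196, limma) and Pcdh7 by -0.72 (adjusted p = 0.0254). Itgb8 lost its call without closed replicate 1 (adjusted p = 0.0697), Dsg2 without open replicate 3 or closed replicate 1 or 2 (adjusted p 0.0542 to 0.104), and Pcdh7 without open replicate 1 or 2 or closed replicate 1 or 2 (adjusted p 0.0632 to 0.166). For cadherins the lower count was 1 without open replicate 1, 2 or 3 and 0 without closed replicate 1 or 2. Of cadherins 2 were higher and 0 lower with array weights and 3 were higher and 5 lower with a random replicate block. For integrins the lower count was 1 without closed replicate 1.

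Enzymes and inhibitors of extracellular proteolysis also differed. Of 20 serine proteases and inhibitors 3 were higher and 5 lower in closed tissue (median -0.087). The membrane protease matriptase (St14) and its inhibitor Spint2, which act together in epithelia, were both lower: St14 was 5.96, 6.11 and 6.40 in the open arrays and 5.18 and 5.13 in the closed arrays (difference -1.003, SE 0.14, adjusted p = 8.47e-04) and Spint2 was 9.40, 9.46 and 9.63 in the open arrays and 7.86 and 7.98 in the closed arrays (difference -1.58, SE 0.13, adjusted p = 1.23e-05). Tmprss2, another membrane serine protease of epithelia, was 7.14, 6.87 and 6.97 in the open arrays and 5.70 and 4.81 in the closed arrays (difference -1.74, SE 0.27, adjusted p = 0.0016). The higher members were secreted proteases. Prss23 was 5.90, 5.55 and 5.80 in the open arrays and 8.66 and 8.12 in the closed arrays (difference 2.64, SE 0.22, adjusted p = 1.30e-05). Tissue plasminogen activator (Plat) differed by 1.25 (adjusted p = 0.0038, limma) and neurotrypsin (Prss12), which cleaves agrin, by 1.34 (adjusted p = 0.00118). The 2 tested probe sets of Plat ran from 0.021 to 1.25.

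Genes of simple epithelia were lower in closed tissue where they passed. Of 11 claudins, which seal tight junctions, 2 were lower and 0 higher (18.2% past the threshold, against 7.18% of all genes tested). Cldn9 differed by -2.60 (adjusted p = 9.47e-06, limma), and Cldn6 was 7.39, 8.66 and 8.06 in the open arrays and 5.70 and 6.002 in the closed arrays (difference -2.19, SE 0.46, adjusted p = 0.0111). Of 22 keratins 3 were lower and 0 higher (13.6% past the threshold, against 7.18% of all genes tested). Krt8 was 9.22, 9.67 and 9.08 in the open arrays and 7.91 and 8.54 in the closed arrays (difference -1.10, SE 0.27, adjusted p = 0.0268), and its partner Krt18 was 8.02, 8.45 and 7.74 in the open arrays and 6.96 and 7.41 in the closed arrays (difference -0.88, SE 0.24, adjusted p = 0.0488). Krt19 differed by -1.19 (adjusted p = 0.0231, limma). Open replicate 2 was the highest array for Krt8 and Krt18. Cldn6 lost its call without closed replicate 1 (adjusted p = 0.0769), Krt8 without open replicate 1 or 2 or closed replicate 1 (adjusted p 0.0616 to 0.231), Krt18 without open replicate 1 or 2 or closed replicate 1 or 2 (adjusted p 0.0587 to 0.302), and Krt19 without open replicate 1, 2 or 3 or closed replicate 1 (adjusted p 0.0621 to 0.224). For claudins the lower count was 1 without closed replicate 1. For keratins the lower count was 0 without open replicate 1 or 2 or closed replicate 1. Of keratins 0 were higher and 1 lower with array weights or with a replicate block shared by both stages.

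Of 28 genes in the junction and polarity list 2 were higher and 2 lower (14.3% past the threshold, against 7.18% of all genes tested). Marveld2, a protein of the corners where 3 cells meet, was 5.42, 5.59 and 6.19 in the open arrays and 4.52 and 4.69 in the closed arrays (difference -1.13, SE 0.21, adjusted p = 0.0058), and the desmosomal protein Dsp differed by -1.53 (adjusted p = 0.0169, limma). Ctnnd2, a neural catenin, differed by 0.92 (adjusted p = 0.0129, limma). Of the 16 surface ectoderm markers, Krt8, Krt18, Krt19, Dsp, Esrp1 and Grhl3 were lower and Tfap2c was higher. Of the 9 that did not pass, Trp63 and Krt5 had differences of -0.018 and 0.091 (adjusted p = 0.993 and 0.941, limma), and Epcam had -1.09 (adjusted p = 0.0993, limma). The list median was -0.33, and 4 of the 16 differences were above 0. The part of the surface ectoderm in the epithelial differences was not tested. Tfap2c lost its call without open replicate 2 or 3 or closed replicate 1 (adjusted p 0.0871 to 0.253). Dsp lost its call without open replicate 1 or 3 or closed replicate 2 (adjusted p 0.0645 to 0.183), and Ctnnd2 without open replicate 1 or closed replicate 1 or 2 (adjusted p 0.0557 to 0.0731). Ctnnd2 lost its call when averaged over all its probe sets (adjusted p = 0.0706, the 2 tested ones from 0.43 to 0.92). For the junction list the higher count was 1 without open replicate 1 or closed replicate 1 or 2, and the lower count was 1 without open replicate 1 or 3 or closed replicate 2.

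Matrix genes went both ways, with 5 higher and 5 lower of 30 in the basement membrane and matrix list (median -0.031). Fbn2, a fibrillin of embryonic microfibrils, was 6.99, 7.39 and 7.12 in the open arrays and 8.57 and 9.30 in the closed arrays (difference 1.77, SE 0.20, adjusted p = 1.24e-04). Col18a1, the basement membrane collagen from which endostatin is cut, was 11.19, 11.26 and 11.13 in the open arrays and 12.06 and 12.09 in the closed arrays (difference 0.88, SE 0.094, adjusted p = 8.19e-05). Egflam (pikachurin), a dystroglycan ligand, was 6.82, 7.36 and 7.30 in the open arrays and 5.53 and 5.52 in the closed arrays (difference -1.64, SE 0.20, adjusted p = 2.20e-04). Among the lower members Nid2, which links laminin to collagen, differed by -0.99 (adjusted p = 0.00611, limma) and the laminin chain Lama5 by -0.72 (adjusted p = 0.0335). Inhibitors of metalloproteases also parted: Timp3 differed by 0.97 (adjusted p = 0.00275, limma) and Timp4 by -1.61 (adjusted p = 7.34e-05). The 2 tested probe sets of Timp4 ran from -1.61 to -0.25, and 1 of them passed. Nid2 lost its call without closed replicate 1 (adjusted p = 0.0519), and Lama5 without open replicate 2 or 3 or closed replicate 1 (adjusted p 0.113 to 0.262). Lama5 lost its call when averaged over all its probe sets (adjusted p = 0.138, the 2 tested ones from -0.72 to -0.33). For matrix genes the lower count was 3 without open replicate 1 and 2 without open replicate 2 or 3 or closed replicate 1.

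Heparan sulfate chains hold FGF, Wnt and hedgehog ligands at the cell surface, and of 21 genes of their core proteins and enzymes 3 were higher and 3 lower (median 0.089). The glypican Gpc4 was 9.25, 9.38 and 9.61 in the open arrays and 7.52 and 7.01 in the closed arrays (difference -2.15, SE 0.21, adjusted p = 4.19e-05). The extracellular sulfatase Sulf2 was 12.31, 12.21 and 12.25 in the open arrays and 11.65 and 11.83 in the closed arrays (difference -0.52, SE 0.086, adjusted p = 0.00246). Among the syndecans, which are transmembrane core proteins, Sdc4 was 6.40, 6.23 and 6.54 in the open arrays and 8.28 and 7.32 in the closed arrays (difference 1.41, SE 0.27, adjusted p = 0.00708) while Sdc2 differed by -0.68 (adjusted p = 0.00822, limma) and Sdc3 by 0.66 (adjusted p = 0.0436). The sulfotransferase Hs3st3b1 differed by 1.34 (adjusted p = 0.00305, limma). Sdc2 lost its call without closed replicate 1 (adjusted p = 0.0762), Sdc3 without open replicate 1, 2 or 3 or closed replicate 2 (adjusted p 0.0875 to 0.378), and Sdc4 without closed replicate 1 (adjusted p = 0.0711). Sulf2 lost its call when averaged over all its probe sets (adjusted p = 0.726, the 3 tested ones from -0.52 to 0.39), as did Hs3st3b1 (adjusted p = 0.151, the 3 tested ones from -0.30 to 1.34), Sdc2 (adjusted p = 0.0924, the 2 tested ones from -0.68 to -0.66) and Sdc3 (adjusted p = 0.245, the 3 tested ones from -0.14 to 0.66). Of the heparan sulfate list 2 were higher and 1 lower with probe sets averaged.

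Enzymes that build other glycans passed in both directions, 7 higher and 8 lower of 87 glycosyltransferases and carbohydrate sulfotransferases. St8sia1, which makes the ganglioside GD3, was 4.21, 4.02 and 4.36 in the open arrays and 5.56 and 5.68 in the closed arrays (adjusted p = 0.00184, limma, open mean under the filter), and St8sia4, which adds polysialic acid to the neural cell adhesion molecule, was 7.23, 7.15 and 7.35 in the open arrays and 6.19 and 5.996 in the closed arrays (difference -1.15, SE 0.21, adjusted p = 0.00435). St8sia6 was 5.15, 5.13 and 5.44 in the open arrays and 3.86 and 3.56 in the closed arrays (adjusted p = 5.72e-05, limma), with the closed arrays under the filter. Fut9, which makes the Lewis X epitope of neural progenitors, differed by 0.87 (adjusted p = 0.00187, limma), and Galnt16, of mucin-type glycosylation, and the branching enzyme Gcnt2 by 0.87 (adjusted p = 0.00213) and -0.70 (adjusted p = 0.00551). Gcnt2 lost its call when averaged over all its probe sets (adjusted p = 0.445, the 3 tested ones from -0.70 to -0.22). For glycosyltransferases the higher count was 4 without closed replicate 2, and the lower count was 4 without open replicate 3 and 5 without closed replicate 1 or 2. Of glycosyltransferases 4 were higher and 5 lower with the 5 E8.5 arrays alone.

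Growth factor receptors and ligands outside the FGF family also differed. Of 26 receptor tyrosine kinases 3 were higher and 2 lower (median 0.09). Met, the receptor for hepatocyte growth factor, was 6.66, 6.64 and 6.87 in the open arrays and 8.88 and 8.33 in the closed arrays (difference 1.88, SE 0.19, adjusted p = 5.19e-05). Ret, the receptor for the GDNF family, was 8.06, 7.73 and 7.41 in the open arrays and 8.86 and 9.004 in the closed arrays (difference 1.20, SE 0.22, adjusted p = 0.00468). Ptk7, a polarity receptor whose loss disturbs neural tube closure, was 7.26, 7.85 and 7.62 in the open arrays and 5.87 and 6.33 in the closed arrays (difference -1.47, SE 0.20, adjusted p = 6.87e-04). Igf1r differed by -0.66 (adjusted p = 0.0038, limma) and Ror1, a Wnt5a receptor, by 0.89 (adjusted p = 0.032). Ror1 lost its call without open replicate 1, 2 or 3 or closed replicate 1 or 2 (adjusted p 0.0606 to 0.185).

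Of 25 TGF-beta and activin genes 3 were higher and 4 lower. Nodal, the ligand of mesendoderm formation, was 6.94, 6.63 and 6.78 in the open arrays and 5.68 and 5.69 in the closed arrays (difference -1.10, SE 0.19, adjusted p = 0.00369), and Tgfb2 differed by -1.17 (adjusted p = 0.0043, limma). The intracellular repressor Skil differed by -0.62 (adjusted p = 0.00261, limma), whereas Fst, which binds activin, differed by 1.27 (adjusted p = 0.00185) and the receptor Acvr2a by 0.79 (adjusted p = 0.00615). Among chemokine genes 2 of 28 were higher and 0 lower (7.14% past the threshold, near the 7.18% of all genes tested). Ackr3, which scavenges the chemokine Cxcl12, was 6.08, 6.22 and 6.31 in the open arrays and 8.75 and 8.91 in the closed arrays (difference 2.63, SE 0.19, adjusted p = 3.45e-06), and the signalling receptor for the same ligand, Cxcr4, differed by 1.13 (adjusted p = 0.0297, limma). Ccn2, a matricellular target of YAP and TEAD, was 6.13, 6.40 and 5.56 in the open arrays and 8.33 and 8.61 in the closed arrays (difference 2.44, SE 0.26, adjusted p = 9.32e-05), while Ccn1, another such target, differed by -0.76 (adjusted p = 0.0375, limma). Ndrg1 of the hypoxia response list differed by -1.31 (adjusted p = 0.00187, limma). Tgfb2 lost its call without closed replicate 1 (adjusted p = 0.0519), Acvr2a without closed replicate 1 (adjusted p = 0.0784), Cxcr4 without open replicate 1 or 3 or closed replicate 2 (adjusted p 0.0917 to 0.254), and Ccn1 without open replicate 2 or 3 or closed replicate 1 or 2 (adjusted p 0.058 to 0.259). For chemokine genes the higher count was 1 without open replicate 1 or 3 or closed replicate 2. Of chemokine genes 1 was higher and 0 lower with the 5 E8.5 arrays alone.

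Enzymes of cholesterol synthesis were higher in closed tissue where they passed, by small amounts. Sterols are needed for membranes and for the hedgehog ligand, which carries a cholesterol group, and the promoters of their synthesis genes are known to hold CCAAT boxes bound by NF-Y next to elements bound by SREBP. RefSeq promoter windows (300 bases around the transcription start) are shown for the 3 members that passed and had an entry. All 3 windows hold the letters CCAAT, or ATTGG on the other strand, and that of Dhcr7 was chosen for this among its entries. They are read 5′ to 3′ on the gene's strand, build GRCm38.p6, at chr13:119690101-119690400 (plus strand) for Hmgcs1, chr9:42264251-42264550 (minus strand) for Sc5d and chr7:143829964-143830263 (plus strand) for Dhcr7, and capitals mark every CCAAT or ATTGG and, in Hmgcs1, the match to TCACNCCAC.
Hmgcs1: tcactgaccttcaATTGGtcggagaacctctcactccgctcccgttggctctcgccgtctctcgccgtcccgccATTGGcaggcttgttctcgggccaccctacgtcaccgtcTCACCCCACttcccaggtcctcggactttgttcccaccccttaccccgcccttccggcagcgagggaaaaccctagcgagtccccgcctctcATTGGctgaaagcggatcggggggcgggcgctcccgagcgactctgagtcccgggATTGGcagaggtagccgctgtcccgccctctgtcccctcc
Sc5d: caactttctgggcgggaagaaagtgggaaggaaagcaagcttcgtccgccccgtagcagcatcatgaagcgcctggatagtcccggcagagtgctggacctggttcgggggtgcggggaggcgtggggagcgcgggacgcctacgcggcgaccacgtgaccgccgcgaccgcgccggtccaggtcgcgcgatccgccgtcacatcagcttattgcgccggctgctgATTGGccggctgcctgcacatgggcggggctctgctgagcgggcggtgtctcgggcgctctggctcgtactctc
Dhcr7: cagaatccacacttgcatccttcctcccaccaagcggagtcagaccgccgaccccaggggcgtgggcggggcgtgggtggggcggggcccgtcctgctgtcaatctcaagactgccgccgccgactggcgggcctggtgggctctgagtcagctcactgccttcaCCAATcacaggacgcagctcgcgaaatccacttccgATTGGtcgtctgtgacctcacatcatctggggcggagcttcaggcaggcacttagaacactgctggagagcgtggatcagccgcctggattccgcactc
Hmgcs1 held 4 matches to CCAAT, Sc5d held 1 and the window of Dhcr7 shown held 2. Of the 20 tested genes of the list 16 had an entry, and all 16 held the pattern, in 16 of their 19 promoters. Both other entries of Dhcr7 held 0 matches. In all 32851 promoters of the same length the share was 37.4%. Of 5 patterns searched in the sterol genes and in 8 MAP kinase feedback and target genes, this one is shown because it stood out. In the feedback and target genes it was in 5 of 8. The core TCACNCCAC of a sterol element was in 1 of the 16 genes, Hmgcs1, and in 1.24% of all promoters. A match describes the letters and is no evidence of binding.

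Of the 20 tested sterol genes 5 were higher and 0 lower, and 18 had a difference above 0 (median 0.44). Stard4, a carrier of free cholesterol, was 8.29, 8.06 and 8.11 in the open arrays and 9.14 and 9.56 in the closed arrays (difference 1.20, SE 0.18, adjusted p = 0.00122). Hmgcs1, which makes HMG-CoA at the start of the pathway, was 12.10, 11.98 and 11.97 in the open arrays and 12.63 and 12.45 in the closed arrays (difference 0.52, SE 0.089, adjusted p = 0.00305). Sc5d, which sets a double bond near the end of the pathway, was 8.49, 8.60 and 8.50 in the open arrays and 9.16 and 9.11 in the closed arrays (difference 0.60, SE 0.12, adjusted p = 0.00821). In all 3 genes the closed arrays lay above every open array, as in every higher gene past the threshold. Dhcr7, the last enzyme, was 8.96, 9.41 and 9.11 in the open arrays and 9.92 and 9.73 in the closed arrays (difference 0.67, SE 0.15, adjusted p = 0.0152), and Sqle, which makes squalene epoxide, was 11.02, 10.93 and 11.03 in the open arrays and 11.34 and 11.34 in the closed arrays (difference 0.35, SE 0.086, adjusted p = 0.0269). Both complete the count and were chosen after their values were seen. The fatty acid synthesis list had 0 of 17 past the threshold (limma), 1 with an unadjusted p under 0.05. Of fatty acid genes 1 was higher and 0 lower with the 3′ to 5′ covariate. Sc5d lost its call without closed replicate 1 (adjusted p = 0.0632), Dhcr7 without open replicate 1 or 3 or closed replicate 1 (adjusted p 0.0618 to 0.128), and Sqle without open replicate 1, 2 or 3 or closed replicate 1 or 2 (adjusted p 0.0659 to 0.134). For sterol genes the higher count was 3 without open replicate 1 or 3 and 2 without closed replicate 1. Of sterol genes 9 were higher and 0 lower with a fixed replicate block, 10 were higher and 0 lower with a random replicate block, 12 were higher and 0 lower with the 3′ to 5′ covariate and 8 were higher and 0 lower without open E9.5 replicate 3.

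At E9.5 the same genes leaned the other way: 0 were higher and 6 lower in closed tissue, with a median of -0.41. Hmgcs1 was then 12.81, 12.92 and 12.75 in the open arrays and 12.48, 12.45 and 12.33 in the closed arrays (difference -0.41, SE 0.08, adjusted p = 0.00663). The change of its difference from E8.5 to E9.5 was -0.93, SE 0.12, adjusted p = 0.00281 (limma interaction). The change was -1.69, SE 0.24, adjusted p = 0.00458 for Stard4 and -1.17, SE 0.16, adjusted p = 0.00384 for Sc5d. At E8.5 the closed arrays of Hmgcs1 were above the open ones, and at E9.5 they were below them.

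**Figure D4:**
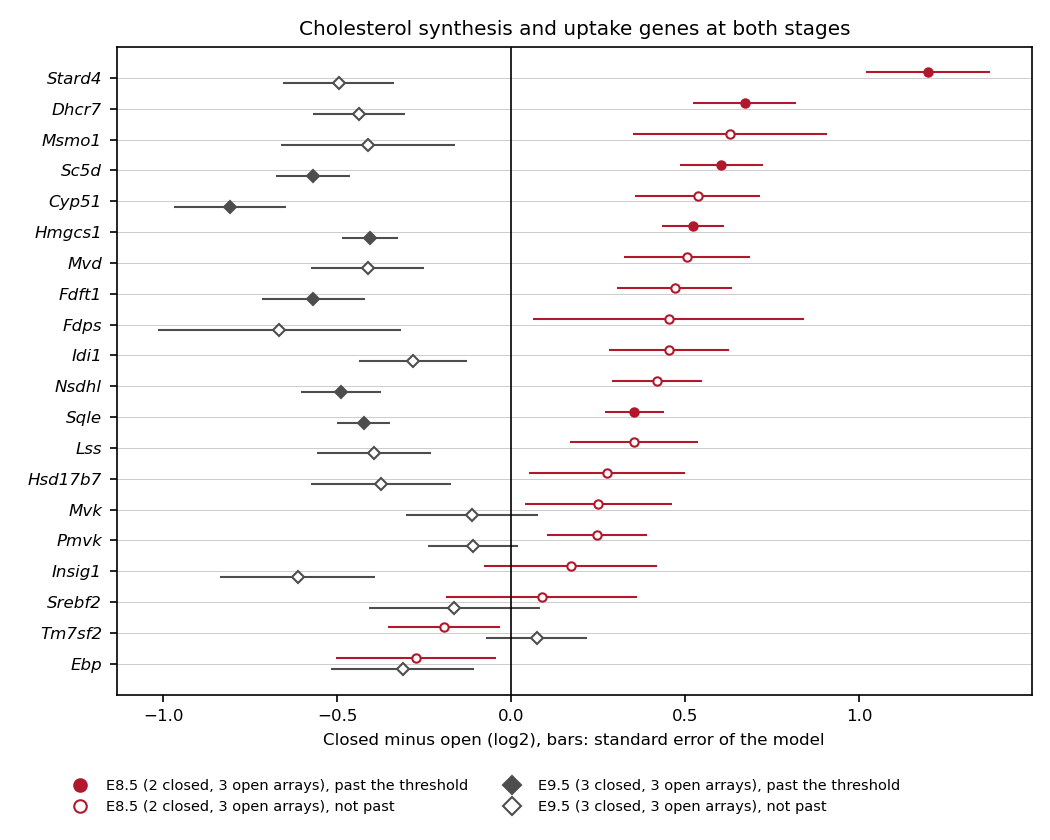
Closed minus open log2 difference (x axis, bars are the SE of the model) of each tested cholesterol gene (rows) at E8.5 (circles) and E9.5 (diamonds), filled where past the threshold. At E8.5, 18 of 20 lie above 0, whereas the E9.5 median is -0.41.

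Imprinted genes, of which only 1 parental copy is read, included 5 lower and 1 higher of 21 (median -0.027). Igf2, the fetal growth factor, was 10.23, 10.78 and 10.49 in the open arrays and 8.16 and 9.17 in the closed arrays (difference -1.84, SE 0.34, adjusted p = 0.00505). Phlda2, a restrainer of placental growth, was 6.17, 6.52 and 6.07 in the open arrays and 5.04 and 5.25 in the closed arrays (difference -1.11, SE 0.14, adjusted p = 3.53e-04). Plagl1, a zinc finger factor that regulates other imprinted genes, was 12.77, 12.69 and 12.68 in the open arrays and 12.27 and 12.07 in the closed arrays (difference -0.55, SE 0.092, adjusted p = 0.00291). Sgce, a sarcoglycan, differed by 0.67 (adjusted p = 0.0156, limma). Igf2 is also abundant in mesoderm, and the streak and presomitic markers lower in closed tissue stand above. Their part in it was not tested. Igf2 lost its call without closed replicate 1 (adjusted p = 0.0589), and Sgce without open replicate 1 or 2 or closed replicate 1 (adjusted p 0.0514 to 0.169). Plagl1 lost its call when averaged over all its probe sets (adjusted p = 0.562, the 3 tested ones from -0.63 to 0.018), as did Sgce (adjusted p = 0.131, 1 tested). For imprinted genes the higher count was 0 without open replicate 1 or 2 or closed replicate 1, and the lower count was 3 without closed replicate 2. Of imprinted genes 0 were higher and 3 lower with probe sets averaged and 3 were higher and 7 lower with a random replicate block.

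Genes of the cell cycle were counted by phase. Of 24 G1 regulators 4 were higher and 1 lower. Ccnd2 (cyclin D2) was 12.31, 12.30 and 12.32 in the open arrays and 13.35 and 13.30 in the closed arrays (difference 1.01, SE 0.085, adjusted p = 1.26e-05). Rb1, the retinoblastoma protein that holds back E2F factors, was 7.94, 7.38 and 7.80 in the open arrays and 9.01 and 8.73 in the closed arrays (difference 1.16, SE 0.20, adjusted p = 0.00306), and Mycn differed by 0.53 (adjusted p = 0.00153, limma). E2f2, which completes the count, differed by 1.02 (adjusted p = 0.00479, limma). The inhibitor Cdkn1a (p21) was 8.76, 8.67 and 9.25 in the open arrays and 6.67 and 6.78 in the closed arrays (difference -2.16, SE 0.20, adjusted p = 2.51e-05). Of 29 DNA replication and 24 mitosis genes 0 passed (limma), which does not show that they were equal, and 1 and 1 had an unadjusted p under 0.05. Of replication genes 1 was higher and 0 lower with a fixed replicate block, with a random replicate block or without open E9.5 replicate 3 and 3 were higher and 0 lower with the 3′ to 5′ covariate. Of mitosis genes 1 was higher and 0 lower with a fixed replicate block, with a random replicate block, with the 3′ to 5′ covariate or without open E9.5 replicate 3. E2f2 lost its call without closed replicate 1 (adjusted p = 0.0561). Mycn lost its call when averaged over all its probe sets (adjusted p = 0.568, the 3 tested ones from -0.10 to 0.53). Of G1 genes 4 were higher and 6 lower with a fixed replicate block and 5 were higher and 5 lower with a random replicate block or with the 3′ to 5′ covariate.

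Targets of p53 included 4 lower and 1 higher of 21. Besides Cdkn1a, the BH3-only gene Pmaip1 (Noxa) differed by -2.31 (adjusted p = 1.96e-06, limma), Trp53inp1 by -0.91 (adjusted p = 0.0143), and the kinase Plk3 by 0.69 (adjusted p = 0.00306). Among 24 chromatin regulators 4 were lower and 0 higher. The de novo DNA methyltransferases were both among them: Dnmt3b was 10.79, 10.86 and 10.87 in the open arrays and 10.21 and 10.21 in the closed arrays (difference -0.63, SE 0.11, adjusted p = 0.00447), and Dnmt3a was 9.64, 9.53 and 9.90 in the open arrays and 8.93 and 8.76 in the closed arrays (difference -0.84, SE 0.16, adjusted p = 0.00525). Jarid2, a partner of Polycomb complex 2, differed by -0.80 (adjusted p = 0.00578, limma). Maintenance methyltransferase Dnmt1 and the Polycomb enzyme Ezh2 had differences of 0.053 and 0.094 (adjusted p = 0.973 and 0.84, limma). Trp53inp1 lost its call without open replicate 1 or 3 or closed replicate 2 (adjusted p 0.0568 to 0.144), Dnmt3a without closed replicate 2 (adjusted p = 0.059), and Jarid2 without closed replicate 2 (adjusted p = 0.0655). Dnmt3b lost its call when averaged over all its probe sets (adjusted p = 0.0901, the 2 tested ones from -0.63 to -0.49). For p53 targets the lower count was 2 without open replicate 1 or 3 or closed replicate 2. For chromatin regulators the lower count was 2 without closed replicate 2.

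Of 247 solute carriers 9 were higher and 6 lower (6.07%, near the 7.18% of all genes tested). Slc16a10, a transporter of aromatic amino acids, was 5.85, 5.87 and 5.77 in the open arrays and 6.83 and 6.98 in the closed arrays (difference 1.08, SE 0.12, adjusted p = 1.30e-04). Slc7a7, a subunit of a cationic amino acid exchanger, was 6.51, 6.71 and 6.89 in the open arrays and 5.37 and 5.66 in the closed arrays (difference -1.19, SE 0.16, adjusted p = 5.57e-04). The 2 tested probe sets of Slc7a7 ran from -1.19 to -0.14, and 1 of them passed. Folr1, the folate receptor on which neural tube closure depends in the mouse, was the 1 higher gene of 22 in the folate and serine list (4.55% past the threshold, under the 7.18% of all genes tested). It was 5.54, 5.22 and 5.36 in the open arrays and 6.57 and 7.14 in the closed arrays (difference 1.48, SE 0.20, adjusted p = 5.80e-04). The glucose transporter Slc2a3 differed by -0.52 (adjusted p = 0.00292, limma), and lactate dehydrogenase B (Ldhb) by 0.85 (adjusted p = 0.00532). The receptor Lgr4, which binds R-spondins, differed by 1.33 (adjusted p = 1.67e-05, limma), and the T-type calcium channel Cacna1g by 1.23 (adjusted p = 2.39e-04). Ldhb lost its call without closed replicate 2 (adjusted p = 0.059). Of the folate and serine list 1 was higher and 1 lower with a fixed replicate block or with a random replicate block and 2 were higher and 1 lower with the 3′ to 5′ covariate. For solute carriers the higher count was 5 without open replicate 1, 4 without open replicate 3 and 3 without closed replicate 2. Of solute carriers 14 were higher and 16 lower with the 3′ to 5′ covariate.

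Other large gene families were mixed. Of 362 Zfp zinc finger genes 4 were higher and 4 lower (2.21% past the threshold, against 7.18% of all genes tested). Zfp703 was 8.92, 8.92 and 8.77 in the open arrays and 10.005 and 10.13 in the closed arrays (difference 1.19, SE 0.16, adjusted p = 5.36e-04), and Zfp467 was 7.33, 7.11 and 7.66 in the open arrays and 5.01 and 4.92 in the closed arrays (difference -2.41, SE 0.30, adjusted p = 2.85e-04). Of 39 kinesins 3 were higher and 1 lower (10.3% past the threshold, against 7.18% of all genes tested), the latter Kif26b, which was 9.49, 9.66 and 9.64 in the open arrays and 7.43 and 7.60 in the closed arrays (difference -2.08, SE 0.16, adjusted p = 6.94e-06). Of 26 nuclear receptors 4 were higher and 4 lower. Respiratory chain subunits and assembly factors (87), cytosolic ribosomal proteins (43), proteasome genes (37), aminoacyl tRNA synthetases (30) and tubulins (17) had no member past the threshold (limma), and their medians lay between -0.02 and 0.023. In that order 0, 1, 2, 1 and 1 of them had an unadjusted p under 0.05. Of proteasome genes 0 were higher and 1 lower with a random replicate block. Of tubulins 1 was higher and 0 lower with a fixed replicate block or with a random replicate block and 1 was higher and 1 lower with the 3′ to 5′ covariate. Zfp703 lost its call when averaged over all its probe sets (adjusted p = 0.0696, the 3 tested ones from -0.11 to 1.19). For Zfp genes the higher count was 2 without closed replicate 2, and the lower count was 2 without open replicate 2 or closed replicate 2. Of Zfp genes 3 were higher and 2 lower with the 5 E8.5 arrays alone, 9 were higher and 8 lower with a random replicate block and 7 were higher and 7 lower with the 3′ to 5′ covariate. For kinesins the higher count was 1 without open replicate 1 and 0 without open replicate 2 or 3 or closed replicate 1 or 2, and the lower count was 2 without closed replicate 2. For nuclear receptors the higher count was 2 without closed replicate 2, and the lower count was 2 without open replicate 2 or closed replicate 1. Of nuclear receptors 2 were higher and 3 lower with probe sets averaged and 2 were higher and 2 lower with the 5 E8.5 arrays alone.

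The same comparison was made on the 3 closed and 3 open E9.5 arrays. The group means of the stages come from separate arrays, but the spread behind the calls of either stage was estimated over all 11, and the filter and the choice of probe set used all 11 too, so the calls are not independent. With the 5 E8.5 arrays alone 777 genes passed at E8.5. At E9.5, 1139 genes were past the threshold (8.54%), 367 higher (2.75%) and 772 lower (5.79%). Of the 507 genes higher at E8.5, 244 were higher at E9.5 (48.1% of the E8.5 and 66.5% of the E9.5 calls), and 447 had a difference above 0. Of the 451 lower genes 299 were lower at E9.5 (66.3% of the E8.5 and 38.7% of the E9.5 calls), and 430 had a difference below 0. How many of all genes tested had either sign at E9.5 was not counted. With the replicate number as a random block, 892 genes in place of 543 passed at both stages. The difference itself changed between the stages (region by stage interaction) in 167 of all genes tested (1.25%). In the 958 genes it did so in 113, 79 of the higher and 34 of the lower, a test that contains the E8.5 arrays by which these genes were called. The interaction count was 452 with a fixed and 492 with a random replicate block. Without open E8.5 replicates 1, 2 or 3 it was 94, 106 and 84, without closed E8.5 replicate 2 it was 102, without open E9.5 replicates 1 or 2 it was 100 and 97, and without closed E9.5 replicates 2 or 3 it was 105 and 94.

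Of the genes of largest difference at E8.5, Scube2, Nrcam and Fez1 had E9.5 differences of 4.53, 3.75 and 3.42, near those of E8.5. Others were far smaller at E9.5. Pth1r was then 5.58, 5.38 and 5.42 in the open arrays and 5.77, 5.68 and 5.93 in the closed arrays (difference 0.33, SE 0.16, adjusted p = 0.271), and its difference changed by -2.88, SE 0.23, adjusted p = 1.83e-04 (limma interaction). Slc12a5 was 5.78, 5.97 and 5.50 in the open arrays and 5.52, 5.71 and 5.24 in the closed arrays (difference -0.26, SE 0.20, adjusted p = 0.565), with a change of -3.32, SE 0.31, adjusted p = 4.39e-04 (limma interaction). In both genes the closed arrays of E9.5 lay more than 2 below those of E8.5. Maob had an E9.5 difference of 0.22 (adjusted p = 0.737), with a change of -3.10 (adjusted p = 0.00361, limma interaction). The change of Fgb also passed (adjusted p = 1.16e-04, limma interaction), but 3 of its 4 group means were under the filter and its size depends on background.

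Among the feedback and target genes of the FGF and MAP kinase pathway, Etv5 was 9.75, 9.90 and 10.17 in the open arrays and 8.43, 8.46 and 8.84 in the closed arrays at E9.5 (difference -1.36, SE 0.26, adjusted p = 0.00501), and its difference changed by 2.21, SE 0.38, adjusted p = 0.0175 (limma interaction). Il17rd differed by -1.42 at E9.5, a change of 1.69 (adjusted p = 6.30e-04, limma interaction). In both genes every closed E9.5 array stood more than 1 above the closed E8.5 arrays. For Dusp6 the change was 1.21 (adjusted p = 0.128, limma interaction), which did not pass. Lmo2 moved the other way, with an E9.5 difference of -4.22 and a change of -1.54 (adjusted p = 0.0175, limma interaction).

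Among guidance and growth factor genes, Sema3c had an E9.5 difference of 0.34 (adjusted p = 0.116, limma) and a change of -1.28 (adjusted p = 0.00403, interaction). The difference of Ret was larger at E9.5: it was then 5.24, 5.19 and 5.75 in the open arrays and 8.71, 8.31 and 8.43 in the closed arrays (difference 3.09, SE 0.20, adjusted p = 1.18e-06), a change of 1.90, SE 0.29, adjusted p = 0.00794 (limma interaction). Of the ephrins and Eph receptors, Epha4, Epha2, Efnb3 and Efnb2 had E9.5 differences of -1.56, -2.17, 1.33 and 1.19, of the same sign as at E8.5 and past the threshold.

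Genes past the threshold in opposite directions at the stages numbered 8. Higher at E8.5 and lower at E9.5 were Hmgcs1, Sc5d and Sqle of the sterol list, Lpl and Car8. Lpl, the lipase that frees fatty acids from lipoproteins, was 8.62, 8.45 and 8.39 in the open arrays and 10.21 and 9.90 in the closed arrays at E8.5 (difference 1.57, SE 0.23, adjusted p = 0.00123). At E9.5 it was 11.41, 11.53 and 11.13 in the open arrays and 9.44, 10.31 and 9.50 in the closed arrays (difference -1.61, SE 0.21, adjusted p = 3.86e-04), so the order of the tissues was turned. Car8, of the carbonic anhydrase family, had differences of 0.55 and -0.69 (adjusted p = 0.0423 and 0.00554, limma). Car8 at E8.5 did not pass with a fixed replicate block within stage (adjusted p = 0.0862, limma). Lower at E8.5 and higher at E9.5 were Hoxb9, Shh and Selenop, the carrier of selenium in plasma. Selenop was 8.57, 8.50 and 8.24 in the open arrays and 6.87 and 7.92 in the closed arrays at E8.5 (difference -1.04, SE 0.24, adjusted p = 0.0207), with closed replicates more than 1 apart, and its E9.5 difference was 1.05 (adjusted p = 0.00869, limma). These 8 were named after their values were seen. Car8 lost its call without open replicate 2 or 3 or closed replicate 1 or 2 (adjusted p 0.12 to 0.174), Selenop without open replicate 1 or 2 or closed replicate 1 (adjusted p 0.0672 to 0.144), Sqle without open replicate 1, 2 or 3 or closed replicate 1 or 2 (adjusted p 0.0659 to 0.134), and Sc5d without closed replicate 1 (adjusted p = 0.0632).

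**Figure D5:**
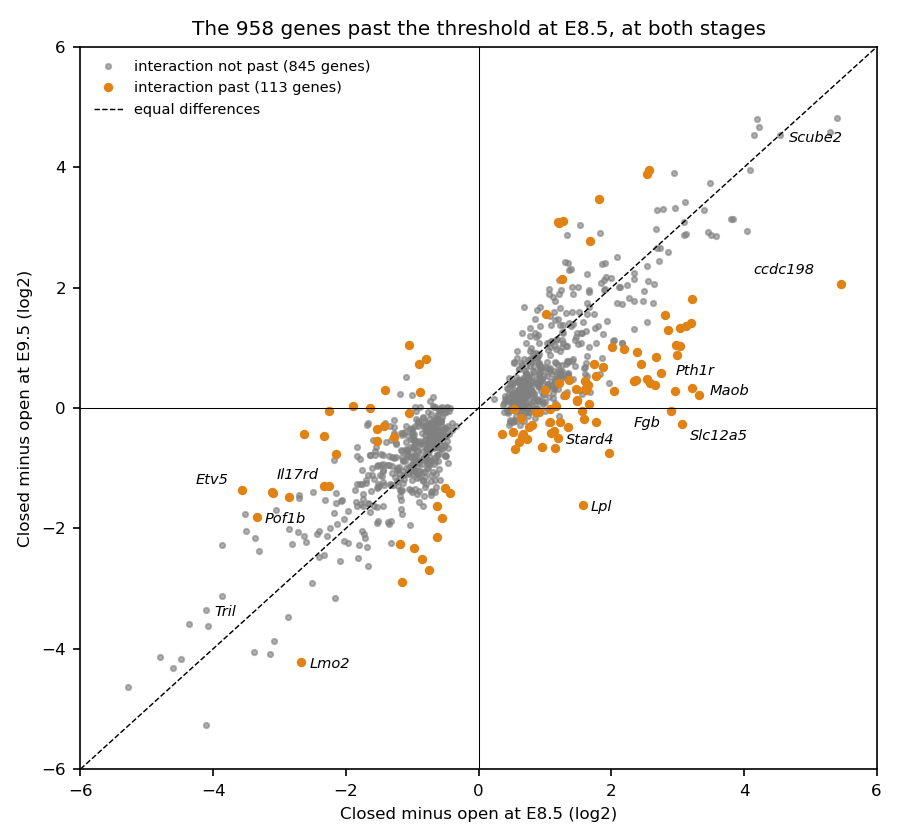
Closed minus open log2 difference at E9.5 (y axis) against that at E8.5 (x axis) for the 958 genes past the threshold at E8.5, 1 point a gene, orange where the region by stage interaction passed (113 genes), with a dashed line of equal differences. Scube2 and Tril lie near the line, whereas Pth1r, Slc12a5, Maob and Fgb lie near 0 at E9.5 and Lpl lies in the quadrant of opposite signs.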

How the data were processed

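RNA from open and closed neural tissue of C57BL/6 mouse embryos was measured on 11 arrays (3, 2, 3 and 3 per group of open and closed E8.5 and E9.5 tissue), of which each is a litter pool and whose number limits the precision. The labels call the arrays of a group biological replicates. The authors deposited a table of log2 signal for 45101 probe sets, from 2.37 to 14.72, with 0 missing values and 0 columns of no sample. MAS5 is named in the submitters' processing notes without a version or a role, and the normalization behind the deposited log2 values is not given in the sources used here. Detection calls were not used here.

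Values were used as deposited. Of the probe sets, 34945 had 1 symbol in the platform annotation, and 932 with several, 9160 with none and 64 control probe sets were left out. Each gene took its probe set of highest mean over all arrays, and 13341 of 18193 genes with a mean of at least the 40th percentile (4.30) were tested. A linear model of 4 group means was fitted to all 11 arrays in R 4.3.3 with the package limma 3.58.1 (eBayes with an intensity trend on the fitted contrasts; residual degrees of freedom 7, prior degrees of freedom 4.40 at the median), with Benjamini-Hochberg adjustment over all genes tested and a threshold of 0.05. The script was tested on simulated data. Gene groups are described by counts and medians, with no set test, and some of the groups counted are not reported here.

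Genes named were the 15 of largest difference in each direction among non-overlapping genes with both means above the filter, up to 10 in each direction with 1 mean under it, patterning families left out, and for every list up to 3 members in either direction by smallest p, with examples printed. Members that complete a count of 5 or fewer, tissue markers and genes of opposite sign at the stages were named too. The members, lists and tests were chosen with earlier results of these data known, and the patterns that define several gene families were corrected after counts were seen, to remove genes of other families. Promoters are RefSeq windows of GRCm38.p6.

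Correlations of deviations from the group means do not settle whether replicate numbers pair the samples. Same-number arrays had 0.576 and 0.697 among the E8.5 arrays and 0.308, 0.341 and 0.687 among those of E9.5. At E9.5 open replicate 2 had 0.317 with closed replicate 1, and open replicate 1 had 0.264 with closed replicate 2. The other pairs of different number at E9.5 ran from -0.412 to -0.543. With 2 closed arrays the E8.5 deviations mirror each other, and open replicate 3 had 0.308 with closed replicate 1. The alternatives were quantile normalization, median centring, other filters and probe set rules, eBayes settings, array weights, the E8.5 arrays alone, replicate blocks, a 3′ to 5′ covariate, a limit of 1 on the difference, and each array left out. Where 1 closed E8.5 array was left, its spread was assumed to be that of the remaining groups.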

Additional observations from a re-analysis of the deposited data

Results flagged for a closer look

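The difference between closed and open tissue changed from E8.5 to E9.5 by the interaction test (limma, adjusted p under 0.05 over all genes tested) in 33 of the genes named above. The test contains the E8.5 arrays by which most of these genes were chosen, and groups of 2 or 3 arrays are too small to mark single arrays as far from the others. The values below are the E9.5 minus the E8.5 difference, log2.

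In 23 genes the value was below 0. It was -3.40 for ccdc198, -3.32 for Slc12a5, -3.18 for Lpl, -3.10 for Maob and -2.88 for Pth1r. It was -1.78 for Cpn1, -1.72 for Ccn2, -1.54 for Lmo2, -1.41 for Mecom, -1.36 for Folr1, -1.31 for Slc16a10, -1.28 for Sema3c, -1.24 for Car8, -1.19 for Met, -1.07 for Slc7a7 and -0.54 for Mycn. The 5 sterol genes had values of -1.69 (Stard4), -1.17 (Sc5d), -1.11 (Dhcr7), -0.93 (Hmgcs1) and -0.78 (Sqle). For Fgb and Gabrg1 the values of -2.95 and -1.76 rest on group means under the filter, so their size depends on background. For Lmo2 and Slc7a7, lower in closed tissue at both stages, a value below 0 is a larger difference at E9.5, and for the others it is a smaller or opposite one.

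In 10 genes the value was above 0. It was 2.21 for Etv5, 1.69 for Il17rd, 1.54 for Pof1b, 1.38 for Plekha2, 1.38 for Lrrn3 and 0.98 for St8sia6 (with means under the filter, so of no set size), which were lower in closed tissue at E8.5 and less so at E9.5. Selenop had 2.10. Ret, Fst and Ccnd2, higher in closed tissue at both stages, had 1.90, 1.84 and 0.55.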

How the results depend on the processing

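Of 160 of the genes named, 155 passed at E8.5. Those of the 26 alternatives that were run for single genes turned the direction of none of these 155, and 107 passed under every one. For the genes named that did not pass, a change of sign without a call was not counted. The E8.5 count of 958 was 654 to 1098 with 1 array left out, with 329 to 580 higher (329 without closed replicate 2). It was 1517 (824 higher, 693 lower) with a random replicate block within stage, 1520 (812 and 708) with the 3′ to 5′ covariate, and 484 (266 and 218) when a difference of at least 1 was also required. With a fixed replicate block it was 1333, of which 928 were among the 958. Of the 958, 905 passed after quantile normalization, 803 with array weights and 728 with the 5 E8.5 arrays alone. The interaction count of 167 was 452 with a fixed and 492 with a random replicate block, 297 with the covariate and 84 to 239 with 1 array left out. The count shared with E9.5 (543) was 892 with the random block, 415 to 569 with 1 array left out and 347 at a difference of at least 1. The number of gene groups with a member past the threshold, 73 of 87, was 65 to 79. The cause of these shifts was not tested. With the replicate number as a block shared by both stages, the calls of Car8, Dusp5, Efna2, Krt8, Krt18, Lama5, Sdc3 and Sqle were lost (adjusted p 0.0576 for Sdc3 at E8.5 to 0.0986 for Krt18 at E8.5, limma). Other calls were lost with the 5 E8.5 arrays alone for Car8, Ccn1, Cxcr4, Dhcr7, Dsg2, Dusp3, Dusp5, Efna2, Foxd1, Krt18, Lama5, Sdc3, Selenop, Sqle and Unc5a (adjusted p 0.0532 to 0.127), with array weights for Car8, Ccn1, Dsg2, Efna2, Krt18, Krt8, Pcdh7, Ror1 and Sqle (adjusted p 0.0619 to 0.2), with arrays centred on their median for Dusp5, Efna2, Krt18, Lama5 and Sdc3 (adjusted p 0.0533 to 0.0775), with no filter for Car8, Krt18 and Sdc3 (adjusted p 0.0515 to 0.0541), after quantile normalization for Efna2 and Sgce (adjusted p 0.0508 to 0.0536), with a stricter filter for Krt18 (adjusted p = 0.0504) and with no intensity trend for Sqle (adjusted p = 0.0528) (limma). Losses with probe sets averaged stand in the report. Of these 160 genes 0 had probe sets past the threshold in both directions, but some probe sets of genes that passed lay near 0. The lowest difference was -0.040 among the 3 of Efnb2 and -0.045 among the 3 of Sc5d. The highest was 0.051 among the 3 of Pcdh7. Among these 160 genes, the fixed block within stage changed only the calls of Car8 and Hbb-y, given in the report. The random block within stage changed none of their calls. The small number of arrays, above all the 2 closed ones, limits every result, and probe sets near background give no size.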
